A study of Homo sapiens with 12 samples.

Results

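The genes described here are 10 secreted inflammatory factors: the chemokines CXCL1, CXCL2, CXCL3, CXCL5, CXCL8, CCL2 and CCL20 and the cytokines IL6, IL1A and LIF. They were chosen by name, as factors that answer to NFAT and NF-kB, and their probes were the array probes whose RefSeq transcript maps to one of these symbols. This gave 10 of the 25746 genes tested and 14 of the 34127 probes on the array, and all 14 probes passed the filter on dim signals.

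Transcripts were measured on 6 two-colour arrays that carried 12 samples of PC-3, an androgen-independent human prostate adenocarcinoma cell line, in 6 groups of 2. All samples came from a pair of stable lines, each a pool of G418-selected cells that also received the pCMV-Td-Tomato marker plasmid: 1 line with a pcDNA3.1 vector for human PIM1 and 1 with the empty vector. Control is the empty-vector line, and WT and MM are that line after transient transfection of wild-type or multi-mutant NFATC1. PIM1, PIM1 + WT and PIM1 + MM are the PIM1 line treated likewise. In multi-mutant NFATC1 the serines and threonines that PIM1 targets are changed to alanine. Control and PIM1 samples were not given an NFATC1 plasmid. Stable PIM1 was compared between 1 line and 1 other, so an effect of PIM1 and a difference between lines cannot be told apart.

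Cy3 marked the control, WT and PIM1 + WT groups and Cy5 the other 3, with no dye swap. Where PIM1 is set against control, or wild-type against multi-mutant NFATC1, dye and group cannot be told apart. Stable PIM1 was compared within Cy3 by PIM1 + WT and WT samples and within Cy5 by PIM1 + MM and MM samples. The sources do not say whether the 2 replicates were separate cultures, so p-values measure the spread between these samples, which may be technical.

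CXCL1, CXCL2, CXCL3, CXCL5 and CXCL8 are CXC chemokines that recruit neutrophils through the receptor CXCR2, and their genes lie in a cluster on chromosome 4. CCL2 recruits monocytes, and CCL20 recruits cells that bear CCR6. IL6 and LIF signal through receptors that share the subunit gp130, encoded by IL6ST, and activate STAT3, whereas IL1A acts on IL1R1 and activates NF-kB. NF-kB binds sites just before the start of many of these genes, and NFAT factors bind a GGAAA core that can lie inside such sites.

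The bases before the start of the genes are shown because 5 neighbouring chemokine genes have the letters GGAATTTCC there. Whether these letters bear on the changes described below was not tested. Each line is the 120 bases that end just before the RefSeq transcript start (RefSeq, GRCh38.p14), 5′ to 3′ on the gene's own strand. Capitals mark every match to the NF-kB consensus or to the letters GGAATTTCC, on either strand. The windows are chr4:73869273-73869392 (plus strand) for CXCL1, chr4:74099196-74099315 (minus) for CXCL2, chr4:74038690-74038809 (minus) for CXCL3, chr4:73998678-73998797 (minus) for CXCL5, chr4:73740449-73740568 (plus) for CXCL8, chr2:227813722-227813841 (plus) for CCL20 and chr7:22727080-22727199 (plus) for IL6.
CXCL1: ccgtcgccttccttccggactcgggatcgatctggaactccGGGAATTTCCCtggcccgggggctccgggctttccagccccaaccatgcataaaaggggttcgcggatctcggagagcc
CXCL2: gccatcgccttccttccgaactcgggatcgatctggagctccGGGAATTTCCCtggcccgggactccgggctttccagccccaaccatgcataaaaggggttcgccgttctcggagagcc
CXCL3: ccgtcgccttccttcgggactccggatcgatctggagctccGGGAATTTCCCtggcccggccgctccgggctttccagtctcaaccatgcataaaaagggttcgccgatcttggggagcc
CXCL5: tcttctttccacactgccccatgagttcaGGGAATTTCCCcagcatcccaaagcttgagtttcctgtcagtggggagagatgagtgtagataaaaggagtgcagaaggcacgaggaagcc
CXCL8: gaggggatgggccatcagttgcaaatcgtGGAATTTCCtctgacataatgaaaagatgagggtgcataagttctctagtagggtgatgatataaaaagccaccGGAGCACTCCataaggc
CCL20: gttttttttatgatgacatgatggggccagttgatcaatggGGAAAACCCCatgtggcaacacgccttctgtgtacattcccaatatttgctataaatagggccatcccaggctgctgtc
IL6: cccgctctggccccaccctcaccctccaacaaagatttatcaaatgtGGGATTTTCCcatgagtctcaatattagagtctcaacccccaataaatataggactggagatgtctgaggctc

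The stretch GGGAATTTCCC stood in the windows of CXCL1, CXCL2, CXCL3 and CXCL5. It was found within 250 bases before the start in 27 of 35116 promoters (0.0769%), and its inner letters GGAATTTCC, which CXCL8 also has, in 145 (0.413%). The CXCL1 and CXCL3 windows were identical at 109 of 120 positions. In IL6 and CCL20 the capitals are other matches to the NF-kB consensus, which 12.3% of all promoters hold in 250 bases. The core GGAAA, read on either strand, overlapped the capitals in all 7 windows, and 55.6% of promoters hold it. The AP-1 letters TGANTCA were matched for CXCL8 and IL1A and in 6.57% of promoters. The motifs were chosen after the sequences were seen, and a match is a description of the letters only. IL1A, which had no NF-kB match, is not printed, and the promoter table had no entry for CCL2 and LIF.

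The identity of the cells and the overexpression were checked on the arrays. KRT8, KRT18, KRT19 and EPCAM, epithelial markers, were well above background (a flag that the scanner software gives each spot) in 12 of 12 channels, as was TMPRSS2, while the prostate antigen gene KLK3 was in 0. The PIM1 probe did not separate the lines: it differed by 0.25 between PIM1 and control (adjusted p = 0.106), by -0.23 between PIM1 + WT and WT (adjusted p = 0.138) and by 0.15 between PIM1 + MM and MM (adjusted p = 0.341). Across dyes, PIM1 + WT minus PIM1 + MM was -0.36 for this probe (adjusted p = 0.0393). Whether it reads the transfected sequence is not known. The authors report overexpression of PIM1 and/or NFATC1 in the array samples by real-time qPCR, which was not checked here. NFATC1 probe A_24_P258846 averaged 6.87 on the log2 scale in control, 7.77 in WT and 11.29 in MM, and 6.38 in the PIM1 line alone, 7.97 with wild-type and 11.95 with multi-mutant NFATC1 added to it, so the forms of NFATC1 differed in signal at this probe as well. The other NFATC1 probe, A_23_P300150, did not pass between WT and MM (8.28 and 8.39, adjusted p = 0.48) and was lower with stable PIM1, at 7.44 (PIM1) against 8.29 (control), 7.19 (PIM1 + WT) and 7.34 (PIM1 + MM) (adjusted p = 1.8e-05, 4.78e-06 and 8.04e-06). Of the markers of other cell types, the endothelial and leukocyte lists had higher sums with stable PIM1, and the ranges of the fibroblast list overlapped. The summed intensity of 3 endothelial genes was 319 to 354 in the samples without it and 444 to 489 in those with it, with VWF above background in 0 channels. That of 4 leukocyte genes was 1282 to 1508 and 1551 to 1800, with 3 of the 4 above background in 12 channels, and that of 3 fibroblast genes was 596 to 676 and 469 to 669, with COL1A2 and DCN above background in 0. Their part in the results below was not tested.

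Of the 10 genes, CXCL1, CXCL2, CXCL3, CXCL5, CXCL8, IL6 and LIF were well above background in all 12 channels. CCL20 was so in 3, those of both PIM1 + WT samples and 1 PIM1 + MM sample. CCL2 and IL1A were so in 0, although each has 10 spots on every array, and no change could be read for them.

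Stable PIM1 went with higher signals of the chemokines CXCL2, CXCL3 and CXCL5 and of the gp130 cytokines IL6 and LIF. In PIM1 cells these 5 of the 10 genes were higher than in control and 0 were lower at an adjusted p below 0.05. In PIM1 + WT cells the called genes were the same 5, against WT, and 0 were lower. In PIM1 + MM cells these 5 and CXCL1 were higher than in MM, and 0 were lower. Calls were common on the array: in these 3 comparisons 25%, 27.3% and 19.4% of all genes were called, and 12.6%, 13.3% and 10% were higher. Among the 14569 genes well above background in all channels, 20.8%, 22.2% and 16% were higher. The median log2 difference of the 10 genes was 0.18, 0.19 and 0.36, against 0.0091, -0.0036 and 0.0033 over all genes. None of the 10 also reached a log2 difference of 1, as 1.17%, 1.28% and 0.878% of all genes did. Of the 10 genes, 6 had a called probe in each comparison, with 26.3%, 27.7% and 19.3% of all probes called.

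The calls depended on the scaling. With each channel centred on its median in place of quantile normalisation, 0 of the 10 genes were called within either dye, where the same 5 genes read 0.19 to 0.48 in Cy3 and 0.25 to 0.55 in Cy5. Between PIM1 and control, 4 were called, IL6 and the dim CCL2, CCL20 and IL1A, and CXCL2 read -0.087. The share of all genes called with centred channels is not given here, so these counts do not show whether calls fell across the array.

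**Figure D1:**
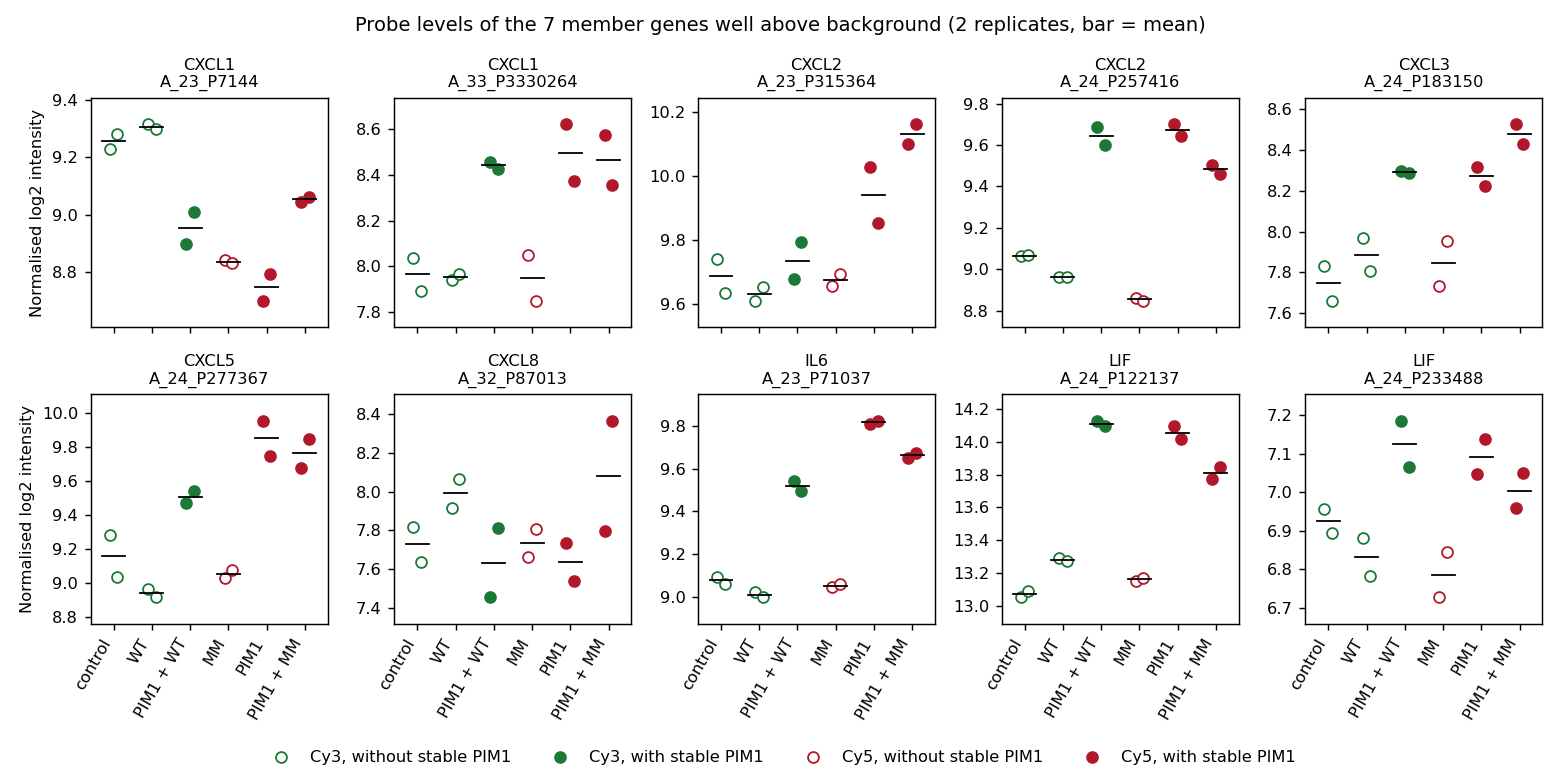
Normalised log2 intensity (vertical axis, with its own range in each panel) of the 10 probes of the 7 genes with signal, by group on the horizontal axis. Each circle is 1 of 2 replicates, each bar the group mean, filled circles have stable PIM1, and green is Cy3 and red Cy5. Filled circles lie above all open ones for CXCL3, CXCL5, IL6, both LIF probes, CXCL2 A_24_P257416 and CXCL1 A_33_P3330264.

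CXCL5, a neutrophil attractant, read 9.28 and 9.04 on the log2 scale in control, 8.97 and 8.92 in WT and 9.03 and 9.08 in MM cells. It read 9.95 and 9.75 in PIM1, 9.47 and 9.54 in PIM1 + WT and 9.68 and 9.85 in PIM1 + MM cells. All samples with stable PIM1 lay above all those without it. The increase was 1.62-fold over control (log2 0.69 ± 0.10 SE, adjusted p = 0.000964), 1.48-fold over WT (adjusted p = 0.00274) and 1.64-fold over MM (adjusted p = 0.00132).

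CXCL3, the neighbour of CXCL5, read 7.83 and 7.66 in control, 7.97 and 7.81 in WT and 7.73 and 7.95 in MM cells. With stable PIM1 it read 8.32 and 8.22 (PIM1), 8.30 and 8.29 (PIM1 + WT) and 8.52 and 8.43 (PIM1 + MM), again with no overlap. It rose 1.44-fold over control (log2 0.52 ± 0.10 SE, adjusted p = 0.00325), 1.32-fold over WT (adjusted p = 0.0116) and 1.55-fold over MM (adjusted p = 0.0019). The call over WT was lost without WT replicate 2 (log2 0.32, adjusted p = 0.0978) or without PIM1 + WT replicate 1 (0.40, adjusted p = 0.0645) or replicate 2 (0.41, adjusted p = 0.0561).

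CXCL2 has 2 probes, which differed in the size of the change. Probe A_24_P257416 read 9.06 and 9.07 in control, 8.96 in both WT and 8.86 and 8.85 in MM samples, and 9.70 and 9.64 in PIM1, 9.69 and 9.60 in PIM1 + WT and 9.51 and 9.46 in PIM1 + MM samples. The samples with and without stable PIM1 did not overlap. Its log2 differences were 0.61, 0.68 and 0.63 (adjusted p = 9.7e-05, 4.52e-05 and 0.000135). Probe A_23_P315364 rose 1.19-fold over control (adjusted p = 0.0397) and 1.37-fold over MM (adjusted p = 0.00345), and its 0.10 ± 0.08 (SE, log2) over WT did not pass (adjusted p = 0.4). The call over control held in 8 of 17 alternatives, and the probe read -0.29 with channels centred on their medians (adjusted p = 0.356). The gene value, the median of both, differed by 0.43, 0.39 and 0.54 (adjusted p = 0.000625, 0.00092 and 0.000273).

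The 2 probes of CXCL1 moved in opposite directions against control and WT. Probe A_33_P3330264 was 7.85 to 8.05 in the samples without stable PIM1 and 8.35 to 8.62 in those with it, and rose 1.45-fold over control (adjusted p = 0.00589), 1.40-fold over WT (adjusted p = 0.00872) and 1.43-fold over MM (adjusted p = 0.0106). Probe A_23_P7144 read 9.23 and 9.28 in control but 8.70 and 8.79 in PIM1 cells, and fell by 0.51 on the log2 scale (adjusted p = 0.000393). It read 9.32 and 9.30 in WT but 8.90 and 9.01 in PIM1 + WT cells, and fell by 0.35 (adjusted p = 0.00272). In Cy5 it read 8.84 and 8.83 in MM and 9.04 and 9.06 in PIM1 + MM cells (log2 0.22, adjusted p = 0.0405). That call held in 7 of 16 alternatives, and with centred channels the difference was 0.08 (adjusted p = 0.988). As the median of both, CXCL1 differed by 0.01 from control (adjusted p = 0.938) and by 0.07 from WT (adjusted p = 0.53) and rose by 0.37 over MM (adjusted p = 0.00407). Nothing in the files shows which probe reads the gene better.

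CXCL8, also known as interleukin-8, was not called in any comparison by the main fit over all samples. With the array as a random block it was called in PIM1 + WT against PIM1 + MM (-0.45). That fit also called it in the change of this contrast from WT against MM (-0.70). It read 7.82 and 7.64 in control, 7.92 and 8.07 in WT, 7.66 and 7.81 in MM, 7.73 and 7.54 in PIM1, 7.46 and 7.81 in PIM1 + WT and 7.80 and 8.36 in PIM1 + MM cells. PIM1 + MM overlapped MM, and PIM1 + WT lay below WT. The log2 differences with stable PIM1 were -0.09 against control (95% interval -0.50 to 0.32), -0.36 against WT (-0.77 to 0.06) and 0.34 against MM (-0.07 to 0.76). The PIM1 + MM samples had the widest spread (SD 0.40), and without PIM1 + MM replicate 1 the difference from MM was 0.63 (adjusted p = 0.0319).

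**Figure D2:**
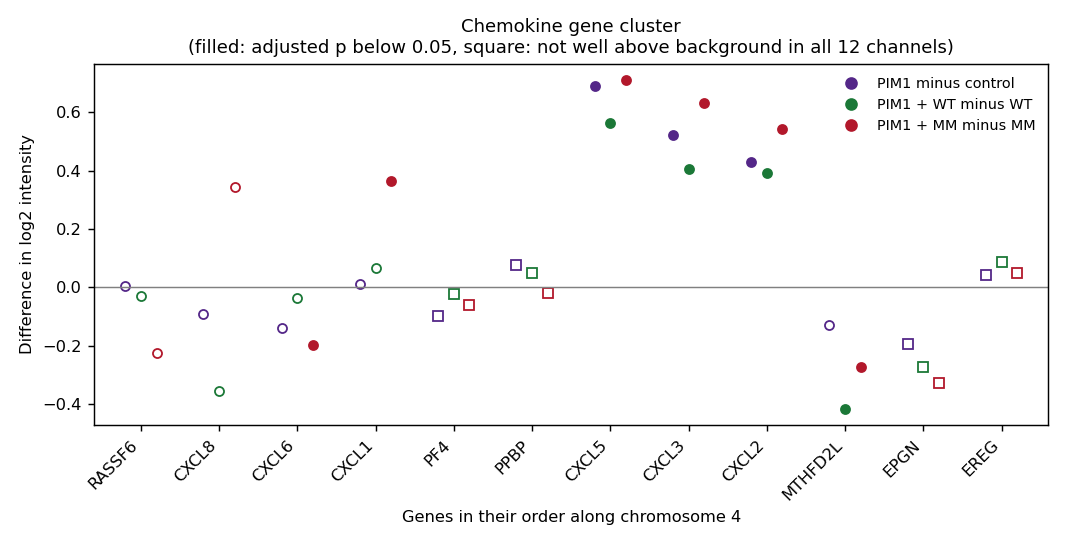
Difference in log2 intensity (vertical axis) of genes in their order along chromosome 4 (horizontal axis), in the 3 comparisons of stable PIM1. Filled symbols passed at an adjusted p below 0.05 and squares are genes not well above background in all 12 channels. CXCL5, CXCL3 and CXCL2, which are adjacent, are filled at 0.39 to 0.71 in each comparison.

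The differences varied along the cluster on chromosome 4. CXCL8 and CXCL6 come first, then CXCL1, PF4 and PPBP, then the adjacent CXCL5, CXCL3 and CXCL2, which rose in each comparison. CXCL6, another neutrophil attractant, was well above background in 12 channels and read -0.14 (adjusted p = 0.0952), -0.04 (adjusted p = 0.717) and -0.20 (adjusted p = 0.0311). The platelet chemokine genes PF4 and PPBP were above background in 1 and 0 channels. MTHFD2L, a mitochondrial folate enzyme gene beyond CXCL2, fell by 0.42 in PIM1 + WT against WT (adjusted p = 0.00363) and by 0.27 in PIM1 + MM against MM (adjusted p = 0.0382). The promoter of CXCL6 holds GGGAATTTCCC as well. Of the 18 genes tested whose promoters hold it, CXCL1, CXCL2, CXCL3 and CXCL5 included, 4 were higher and 1 lower in PIM1 against control, 7 and 2 in PIM1 + WT against WT, and 5 and 2 in PIM1 + MM against MM. Of all genes, 12.6%, 13.3% and 10% were higher. The stretch was read from the CXCL1 window, so this set was built around the members. Apart from them, the higher genes were COL7A1, then COL7A1, NFKBIB, OAS3 and STARD3, then OAS3.

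IL6, a cytokine that is a classical NF-kB target, was measured by probe A_23_P71037 on 10 spots of each array. Its mean was 9.09 and 9.06 in control, 9.02 and 8.997 in WT and 9.04 and 9.06 in MM cells, and 9.81 and 9.82 in PIM1, 9.54 and 9.49 in PIM1 + WT and 9.65 and 9.67 in PIM1 + MM cells. All samples with stable PIM1 were above all those without it, and within Cy5 the order was PIM1, PIM1 + MM, MM with no overlap. The increase was 1.67-fold over control (log2 0.74 ± 0.05 SE, adjusted p = 2.41e-05), 1.42-fold over WT (adjusted p = 0.000149) and 1.53-fold over MM (adjusted p = 0.000103). With each channel centred on its median this probe read 0.24, 0.32 and 0.46 and did not pass (adjusted p = 0.398, 0.401 and 0.87).

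The other IL6 probe, A_33_P3407013, was not well above background in any channel. The gene value, the median of both, therefore differed by 0.35, 0.25 and 0.27 (adjusted p = 0.0034, 0.0154 and 0.0159). Against WT the call was lost without WT replicate 2 (log2 0.21, adjusted p = 0.126) or without PIM1 + WT replicate 1 (0.25, adjusted p = 0.0792) or replicate 2 (0.25, adjusted p = 0.075). Against MM the call was lost without MM replicate 2 (0.23, adjusted p = 0.105) or PIM1 + MM replicate 2 (0.22, adjusted p = 0.0891).

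**Figure D3:**
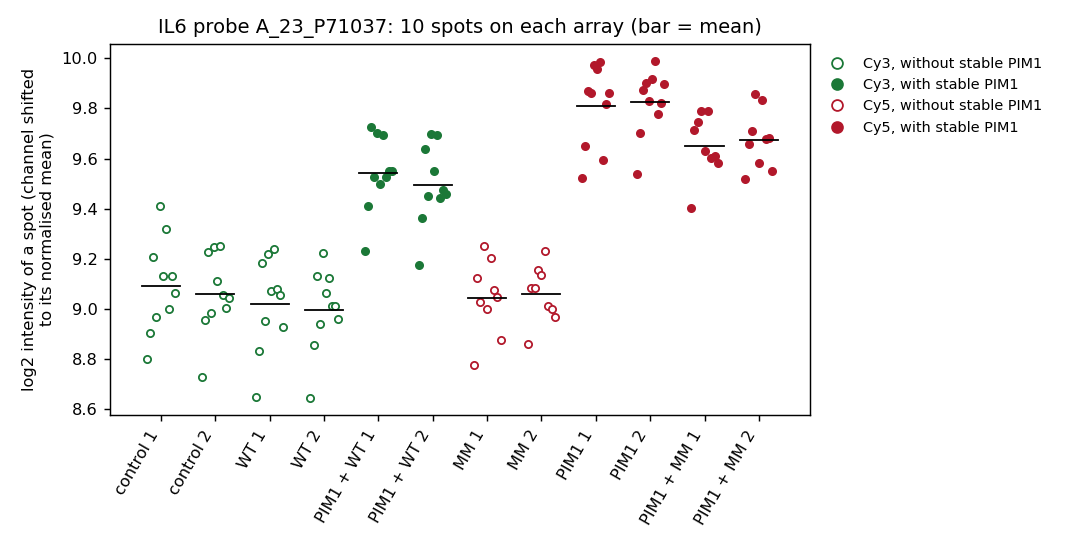
log2 intensity (vertical axis) of the spots of IL6 probe A_23_P71037 in each of the 12 samples, each channel shifted so that its mean equals the normalised level, without spots flagged as outliers. Each circle is 1 of up to 10 spots and each bar the mean, and filled circles have stable PIM1. The spots of a channel had an SD of 0.11 to 0.19, and the means with stable PIM1 lie at 9.49 to 9.82.

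LIF, leukaemia inhibitory factor, had the largest increase of the 14 probes over control and over WT, while CXCL5 had it over MM. Probe A_24_P122137 read 13.05 and 13.09 in control, 13.29 and 13.27 in WT and 13.15 and 13.17 in MM cells, and 14.10 and 14.01 in PIM1, 14.13 and 14.09 in PIM1 + WT and 13.77 and 13.85 in PIM1 + MM cells. The samples with and without stable PIM1 did not overlap. The increase was 1.97-fold over control (log2 0.98 ± 0.06 SE, adjusted p = 9.02e-06), 1.78-fold over WT (adjusted p = 1.83e-05) and 1.57-fold over MM (adjusted p = 0.000128). Probe A_24_P233488 read 6.73 to 6.96 without and 6.96 to 7.19 with stable PIM1, and passed against WT (log2 0.29, adjusted p = 0.0176), not against control (0.17, adjusted p = 0.153) or MM (0.22, adjusted p = 0.0769). The gene value rose by 0.57, 0.56 and 0.43 (adjusted p = 0.000151, 0.000155 and 0.00114).

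CCL20 read 6.43 and 6.61 in PIM1 + WT cells, where its spot was above background, and 6.34 and 6.45 in WT cells, where it was not. The samples of these groups overlapped, and the log2 difference of 0.12 (95% interval -0.11 to 0.36) did not pass (adjusted p = 0.471). PIM1 + MM cells, of which 1 array measured it, differed from MM by 0.17 (-0.07 to 0.40), which did not pass either (adjusted p = 0.311). CCL2 lay between 6.20493 and 6.27595 and IL1A between 6.15 and 6.29 in the 12 samples.

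**Figure D4:**
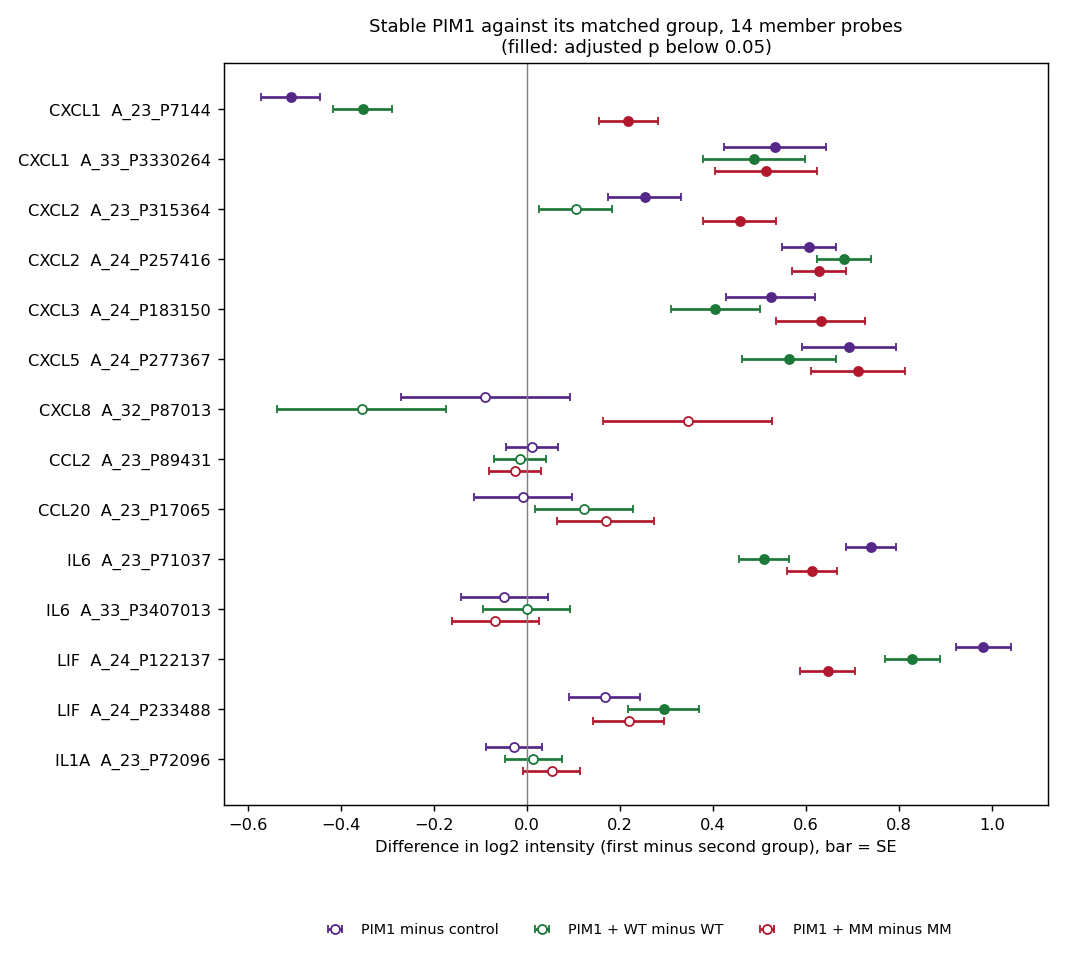
Difference in log2 intensity (horizontal axis) between cells with and without stable PIM1 for all 14 probes (vertical axis), in 3 comparisons. Points are limma estimates, bars are SE, and filled points passed at an adjusted p below 0.05. LIF A_24_P122137 lies farthest to the right, at 0.98 against control, and CXCL1 A_23_P7144 runs from -0.51 to 0.22.

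The raw signals show how much of these differences came with the scaling. In Cy5, from MM to PIM1 + MM, the raw log2 signal of the IL6 probe differed by 0.41 and 0.32 in replicates 1 and 2, LIF A_24_P122137 by 0.48 and 0.50 and CXCL5 by 0.45 and 0.47. The median of all probes differed by -0.07 and -0.05 there. In Cy3, from WT to PIM1 + WT, the median of all probes differed by -0.32 and -0.46, so the channels were dimmer. The raw signal of IL6 differed by -0.07 and -0.29 there, CXCL5 by -0.09 and -0.17 and LIF A_24_P122137 by 0.09 and -0.09, while CXCL1 A_23_P7144 differed by -1.03 and -1.08 and CXCL8 by -0.99 and -0.97. The Cy3 increases are thus relative to the other probes of the channel. In bulk samples, fewer cells of a type and less RNA per cell cannot be told apart.

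Whether wild-type and multi-mutant NFATC1 differed in these genes was asked without and with stable PIM1. At NFATC1 probe A_24_P258846, WT minus MM was -3.52 and PIM1 + WT minus PIM1 + MM was -3.98. The form of NFATC1, its signal at this probe and the dye therefore cannot be told apart in these contrasts. The WT and MM samples share arrays, as do the PIM1 + WT and PIM1 + MM samples. With the array as a random block, 1 of the 10 genes (CXCL1, 0.24, adjusted p = 0.0358) was called between WT and MM, 3 (LIF, CXCL5 at -0.26 and CXCL8 at -0.45) between PIM1 + WT and PIM1 + MM, and 2 (CXCL1 at -0.30 and CXCL8 at -0.70) in the difference of these contrasts. The share of all genes called with the block is not given here, so these counts cannot be set beside it. The values that follow are without the block. Between WT and MM cells 0 of the 10 genes were called by limma, 1 (CXCL1) had an unadjusted p below 0.05, and 0.804% of all genes were called. CXCL8 differed by 0.25 (95% interval -0.16 to 0.67) and CXCL5 by -0.11 (-0.34 to 0.12). Of the probes, CXCL1 A_23_P7144 was higher in WT by 0.47 (adjusted p = 0.0199), with 1.02% of all probes called, and this call held in 9 of 16 alternatives. Between WT and control cells 0 of the 10 were called, 0 had an unadjusted p below 0.05, 0.233% of all genes were called, and of the 14 probes 0 passed, with 0.191% of all probes called.

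With stable PIM1, LIF was higher with wild-type than with multi-mutant NFATC1, by 0.21 ± 0.06 (SE, log2, adjusted p = 0.0413), the 1 call among the 10 genes in a comparison that called 16% of all genes. Its probe A_24_P122137 read 14.13 and 14.09 against 13.77 and 13.85 (1.23-fold, adjusted p = 0.00831). The gene call was lost when any 1 of the 4 samples compared was left out (adjusted p = 0.0619 to 0.238). CXCL5, CXCL8, CXCL3, CXCL2 and IL6 read -0.26, -0.45, -0.18, -0.12 and -0.11 and did not pass (adjusted p = 0.125 to 0.311), but CXCL8 passed without PIM1 + MM replicate 1, at -0.73 (adjusted p = 0.0204). CXCL2 probe A_23_P315364 was lower with wild-type NFATC1, at 9.68 and 9.79 against 10.10 and 10.16 (log2 -0.40, adjusted p = 0.00824), while A_24_P257416 read 0.16 (adjusted p = 0.0959). Of all probes, 17.1% were called.

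The difference between these contrasts, in which a constant dye effect cancels, was called by limma for 0 of the 10 genes, 2 of which had an unadjusted p below 0.05, and for 2.18% of all genes and 2.6% of all probes. CXCL1 A_23_P7144 passed, at -0.57 (adjusted p = 0.0162), and did so in 13 of 20 alternatives. From PIM1 to PIM1 + MM cells, both in Cy5, 0 of the 10 were called by limma, 3 had an unadjusted p below 0.05, and 12.4% of all genes and 13.5% of all probes were called. LIF A_24_P122137 fell by 0.25 there (adjusted p = 0.0259) and CXCL1 A_23_P7144 rose by 0.31 (adjusted p = 0.0149).

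**Figure D5:**
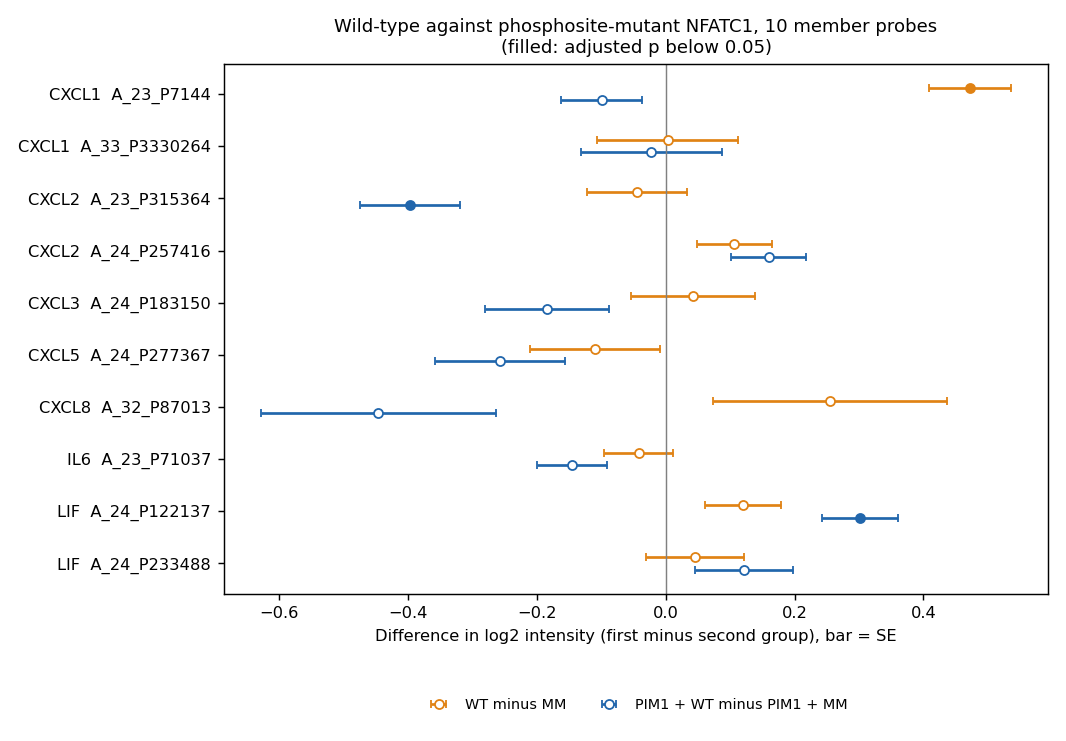
Difference in log2 intensity (horizontal axis) between wild-type and multi-mutant NFATC1 for the 10 probes with signal (vertical axis), without and with stable PIM1. Points are limma estimates, bars are SE, and filled points passed at an adjusted p below 0.05. The filled points are CXCL1 A_23_P7144 at 0.47 without PIM1, and LIF A_24_P122137 at 0.30 and CXCL2 A_23_P315364 at -0.40 with PIM1.

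Other secreted factors were counted from lists, in the order PIM1 against control, PIM1 + WT against WT, then PIM1 + MM against MM. In that order 25%, 27.3% and 19.4% of all genes were called, higher or lower. Among the 14569 genes well above background in all channels, 40%, 44.3% and 30% were called. The counts of each list are to be read beside these shares. Of 16 further chemokines tested, of which 4 were well above background in all 12 channels, 1 was higher and 1 lower, then 0 and 1, then 1 and 2, and their median differences were 0.0017, -0.02 and -0.05. CCL26, an eosinophil attractant, rose by 0.72 over control (adjusted p = 0.00184) and by 0.57 over MM (adjusted p = 0.00903). CXCL16, a membrane-bound chemokine, fell by 0.47, 0.47 and 0.26.

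Of 21 further cytokines, 12 of them well above background in all channels, 4 were higher and 3 lower, then 4 and 4, then 6 and 3, with medians of 0.04, -0.05 and -0.0053. IL33, an alarmin of the interleukin-1 family, rose by 1.29, 0.95 and 1.12. IL11, which signals through gp130 as IL6 and LIF do, fell by 1.14, 1.29 and 1.11. LTB, a lymphotoxin subunit, differed by -1.24, -1.65 and -1.02, each called lower, and was higher in WT than in MM cells by 0.83 (adjusted p = 0.0259).

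Of 15 receptors, 6 of them well above background in all channels, 3 were higher and 1 lower, then 1 and 0, then 0 and 0, with medians of 0.07, -0.02 and 0.01. LIFR, the LIF receptor, exceeded control by 0.62 in PIM1 cells (adjusted p = 0.000338), across dyes, and read -0.06 and -0.24 within a dye (adjusted p = 0.644 and 0.0521). IL6R was lower by 0.65 across dyes (adjusted p = 0.0191) and did not pass within one (adjusted p = 0.297 and 0.277). CXCR1 and CXCR2, receptors of the CXC chemokines, were above background in 1 and 0 channels.

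Of 26 NF-kB subunits, inhibitors and kinases, 22 were well above background in all channels. Among all genes that bright, 40%, 44.3% and 30% were called. From the list, 7 were higher and 6 lower, then 8 and 8, then 4 and 2, with medians of 0.05, -0.06 and 0.0039. NFKB2, the p100 precursor of a subunit, rose by 0.70, 1.13 and 0.45, and IKBKG, the regulatory subunit of the IkB kinase, by 0.53 and 0.59 in the first comparisons. CYLD, a deubiquitinase that restrains the pathway, fell by 0.40 and 0.54 in the same ones. TRAF2, also of this list, read -0.55 in PIM1 against control (adjusted p = 0.000558 by limma). With stable PIM1, NFKB2 was higher with wild-type than multi-mutant NFATC1 by 0.96 and IRAK1, a kinase of interleukin-1 receptor signalling, by 0.79.

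Other NF-kB responsive genes tested numbered 18, with 13 well above background in all channels. Of the 18, 3 were higher and 4 lower, then 4 and 6, then 3 and 4, with medians of -0.06, -0.10 and 0.04. ICAM1, a leukocyte adhesion molecule, rose by 0.62, 0.60 and 0.61, and MMP9, a gelatinase, fell by 0.82, 0.76 and 0.61. CEBPD, a transcription factor, rose by 0.97 over WT and 0.85 over MM, and read -0.27 against control (adjusted p = 0.057). Genes of gp130 and STAT3 signalling tested numbered 11, with 10 well above background in all channels. Of the 11, 3 were higher and 1 lower, then 3 and 4, then 2 and 1, with medians of 0.06, 0.02 and -0.17. PTPN11, the phosphatase SHP2, fell by 0.76, 0.62 and 0.59. The probe value of STAT3 was above background in 0 channels.

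Many of these messages carry AU-rich elements that shorten their life. Of 15 genes of that decay, all well above background in all channels, 4 were higher and 4 lower, then 4 and 4, then 2 and 4. Their medians were 0.05, -0.16 and -0.14. ZFP36, which binds AU-rich elements and promotes decay, rose by 0.68, 0.30 and 0.39, and its relative ZFP36L2 fell by 0.61, 0.62 and 0.60. DCP2, a decapping enzyme, rose by 0.83, 0.37 and 0.41.

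Over the 12 samples, after the mean of each dye was taken off, Pearson's r was 0.976 between CXCL2 and CXCL5, 0.930 between CXCL2 and IL6 and 0.917 between IL6 and LIF. CXCL8 had r between -0.189 and 0.234 with the others with signal. The samples share slides and come from 2 lines, so genes that differ between the lines correlate. Among 12143 genes, the closest to CXCL2 were SPINK13 (r = 0.997), SMARCA1 and FOXL1, to CXCL5 SLC7A2 (r = 0.990), TAF7 and TOM1L1, and to CXCL3 SUSD2 (r = 0.972), PPP1R26 and TST. The closest to IL6 were FAT3 (r = 0.970), NEDD9 and MRPS11, to LIF ARRDC1 (r = 0.995), CDA and MKNK2, to CXCL1 PMP22 (r = 0.961), KLHL18 and TIMP2, and to CXCL8 ARHGEF17 (r = 0.928), TSR2 and PFKFB2.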

How the data were processed

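Each of the 12 samples was read from the channel of its dye in 6 scanner files (Agilent Feature Extraction 11.0.1.1). The authors deposited raw median intensity, processed intensity and flags per spot, and a table of log2 values. That deposited log2 table equals quantile-normalised log2 median intensity to within 0.0844. The plan named the mean signal, and the median was used instead.

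Outlier-flagged spots were dropped before averaging each probe. A probe was kept when at least 2 of 12 channels exceeded the 90th percentile of negative controls (31484 of 34127). Without background subtraction, log2 values were quantile normalised and reduced to the median over the probes of a RefSeq symbol (GRCh38.p14). Between 56.9% and 69.0% of spots per channel were well above background, and 0 were saturated. Precision is limited by how few arrays there are.

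Group means over all 12 samples were fitted with limma 3.58.1 (R 4.3.3), with two-sided p-values and Benjamini-Hochberg adjustment over all genes. A fit over single probes was added after seeing the data. The fits were tested on simulated data with independent noise in each channel and changes larger than those of the members. That test does not cover samples that share arrays, or smaller changes. Members, lists and tests were chosen with earlier results of these data known. Named are the members, the 3 called genes of each list with the largest change of one sign in both replicates, the 3 genes most like each member with signal, PIM1 and NFATC1, apart from items not reported here. Values of such genes in further comparisons, STAT3, CXCR1, CXCR2 and the neighbours on chromosome 4 were added after their values were seen. Alternatives covered background, normalisation, filter, probe choice, blocks, samples fitted and call rule.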

Additional observations from a re-analysis of the deposited data

Results flagged for a closer look

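One result differed between cells without and with stable PIM1 by a test of the difference itself. For CXCL1 probe A_23_P7144, WT minus MM was 0.47 on the log2 scale in cells without stable PIM1 (9.31 against 8.83) and PIM1 + WT minus PIM1 + MM was -0.10 (8.95 against 9.05). The interaction was -0.57 ± 0.09 (SE, adjusted p = 0.0162 by limma over all probes), with -0.62 in replicate 1 and -0.52 in replicate 2. It was called in 13 of 20 alternatives, with an adjusted p of up to 0.998 with each channel centred on its median, and the difference between WT and MM was called in 9 of 16. The other CXCL1 probe, A_33_P3330264, gave -0.03 (adjusted p = 0.973).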

How the results depend on the processing

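Counts are of the 10 genes called, and the share of all genes called under each alternative is not given here. PIM1 against control gave 5, and 4 to 6 under the alternatives run, except that 0 reached an absolute log2 fold change of 1. That further condition also left 0 for PIM1 + WT against WT (5), PIM1 + MM against MM (6) and PIM1 + WT against PIM1 + MM (1). Median centring of the channels moved the median of all genes by 0.13 in PIM1 against control and by 0.14 in PIM1 + WT against WT. It gave 0 called in PIM1 + WT against WT, PIM1 + MM against MM and PIM1 + WT against PIM1 + MM, and in PIM1 against control, where 1 of the 4 called (IL6) was among the 5, it turned CXCL2 to -0.087 and CCL20 and IL1A, both below background, to 0.70 and 0.73. The cause was not tested. With the probe of the highest mean in place of the median, CXCL1 read -0.51 and -0.35 in PIM1 against control and PIM1 + WT against WT, since that probe is A_23_P7144. That choice called 1 gene in WT against MM, 2 in PIM1 + WT against PIM1 + MM, 1 in the interaction and 2 in PIM1 + MM against PIM1. The array as a random block called 1, 3 and 2 in WT against MM, PIM1 + WT against PIM1 + MM and the interaction. An unadjusted p below 0.05 with a log2 fold of at least 0.1 called 1, 3, 2 and, in PIM1 + MM against PIM1, 3. Genes with a called probe numbered 1, 2, 1 and 2 in the same 4 comparisons. For PIM1 + WT against PIM1 + MM, normexp gave 0, only the groups compared 0 and the filter in all 12 channels 3. For PIM1 + MM against PIM1, processed signals gave 1 and leaving out the first of the arrays with control and PIM1 samples gave 1, CCL20. Leaving out 1 sample gave 5 in PIM1 against control, 0 in WT against MM and WT against control, 0 to 1 in PIM1 + WT against PIM1 + MM, the interaction and PIM1 + MM against PIM1, 3 to 5 in PIM1 + WT against WT (3 without WT replicate 2, PIM1 + WT replicate 1 or PIM1 + WT replicate 2, when CXCL3 and IL6 were no longer called) and 5 to 7 in PIM1 + MM against MM.

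The replicate number marks the slide in the file headers. Deviations of same-numbered samples correlated at 0.05 to 0.83 over 15 pairs of groups, 7 of them over 0.1. The highest were those of groups that share arrays: 0.83 for control and PIM1, 0.50 for WT and MM and 0.35 for PIM1 + WT and PIM1 + MM. Groups on different arrays had 0.05 to 0.17. The replicate numbers were not taken as pairs, and the main fits do not take the shared arrays into account. With the array as a random block the estimated correlation within an array was 0.42. With the replicate block, 5, 5 and 6 genes were called in the 3 comparisons of stable PIM1, as without it. Signal over background limits CCL2, IL1A and CCL20.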
